A study of Mus musculus with 40 samples.

Results

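The genes *Zfp900* to *Zfp999* are a numbered stretch of the mouse zinc finger gene nomenclature, most of them encoding Krüppel-associated box (KRAB) zinc finger proteins. Members were all protein-coding genes whose symbol is Zfp9 followed by exactly 2 digits, which gave 66 of the 56748 genes in the deposited table. The members were followed in wild-type (WT) mouse embryonic stem (mES) cells, in epiblast-like cells (EpiLCs) made from them, and in cells without lamins, without the lamin B receptor LBR, or without both.

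KRAB zinc finger proteins bind DNA through arrays of C2H2 zinc fingers. Through the KRAB domain they bring in the corepressor TRIM28 (KAP1), which recruits the methyltransferase SETDB1, and SETDB1 deposits H3K9me3. Many of these genes lie in large clusters of similar copies that expanded in rodents, and gene clusters on mouse chromosomes 2 and 4 are known for repression of endogenous retroviruses in mES cells.

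The series held 40 total RNA-seq libraries in 8 groups, 4 genotypes at each of 2 stages, with 8 WT libraries per stage and 4 libraries of each mutant per stage. Both parental lines were derived as XY. Naive mES cells were grown in 2i + LIF, that is with MEK and GSK3 inhibitors and the cytokine LIF, and EpiLCs were harvested 48 h after transfer to 20 ng/ml FGF and 12 ng/ml activin A. TKO cells carried deletions of *Lmna*, *Lmnb1* and *Lmnb2* and were compared with a littermate WT line. LBRKO cells carried frameshift indels in *Lbr* made by Cas9 in the WT line. QKO cells were a single surviving clone in which *Lbr* was disrupted on the TKO background. Several LBRKO clones existed, and the labels do not say which was sequenced. Karyotypes were mixed: the TKO line was trisomic for chromosome 8, with Y missing from part of its cells, while the mostly normal WT line held some cells without Y and some with trisomy of chromosomes 6 and 8 and no Y. The spread between libraries is therefore spread between cultures of a line, and p-values measure that spread only.

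The libraries held 22594640 to 48863506 counts on genes, of which 24117 to 69904 fell on the members. *Lmnb1* averaged 515 CPM (counts scaled to a common library size) in WT mES cells and 8.47 in TKO mES cells, and 516 in WT EpiLCs against 0.840 in TKO EpiLCs. *Lbr* still gave 209 CPM in LBRKO mES cells against 372 in WT, and gene-level counts do not separate the exon that carries the indels from the rest of the gene. A list of 6 naive markers summed to 3822–4526 CPM in WT mES cells and 104–173 CPM in WT EpiLCs, while 5 primed and formative epiblast markers summed to 172–264 and 3867–4674 CPM. In QKO EpiLCs the primed list summed to 2857–2980 CPM. *Dnmt3b* averaged 1693 CPM there against 3023 in WT EpiLCs and *Dnmt3a* 645 against 777. The means of *Fgf5*, *Otx2* and *Pou3f1* were above WT. 3 trophectoderm markers summed to 20.7–22.9 CPM against 7.25–9.70 CPM in WT EpiLCs. *Eomes* made up most of this (21.4 against 7.93), with *Cdx2* at 0.245 against 0.235 and *Elf5* at 0.105 against 0.0632. 4 primitive endoderm markers summed to 7.85–12.7 against 5.07–7.77 CPM. *Gata6* (2.90 against 0.372), *Pdgfra* (2.32 against 0.395) and *Sox17* (0.566 against 0.459) were higher and *Gata4* lower (4.83 against 5.46). 4 genes of the 2-cell-like state summed to 0.178–1.45 CPM in WT mES cells, at most 0.150 CPM in mutant mES cells, 5.98–9.52 CPM in WT EpiLCs and 0.358–2.45 CPM in mutant EpiLCs. 3 fibroblast markers summed to 6.61–7.70 CPM in QKO EpiLCs and 6.31–8.43 CPM in LBRKO EpiLCs against 9.81–12.0 CPM in WT EpiLCs. *Thy1* made up most of these sums (6.97 CPM in WT, 4.12 in QKO and 4.78 in LBRKO EpiLCs), and *Col1a2* was not lower in QKO EpiLCs (1.22 against 1.16). In LBRKO mES cells the fibroblast list summed to 5.65–6.46 CPM against 2.61–3.84 CPM in WT, the primitive endoderm list to 13.2–14.5 against 6.24–8.32 CPM, and the trophectoderm list to 14.0–15.9 against 6.26–10.5 CPM. *Thy1* (0.930 against 1.05 CPM) and *Elf5* (0.193 against 0.238 CPM) did not share these increases. The part of these differences in the results below was not tested. WT libraries 1 to 4 were shallower than WT libraries 5 to 8, with 27696460–33062951 against 39434595–46631348 counts in mES cells and 25360443–33516247 against 44442302–48863506 in EpiLCs. TKO and QKO libraries had the depth of the first set and LBRKO libraries that of the second, so results were also computed against each set.

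Of the 66 members, 59 passed the filter on low counts and were tested. The other 7 (*Zfp957*, *Zfp965*, *Zfp966*, *Zfp967*, *Zfp968*, *Zfp969* and *Zfp973*) reached at most 0.324 CPM in any library, and *Zfp968* had no read. At least 1 KRAB-like residue pattern was found in the annotated coding sequences of 62 members, all but *Zfp956*, *Zfp957*, *Zfp972* and *Zfp999*. The number of C2H2 finger patterns per member ranged from 0 to 21 with a median of 11, and 52 members had at least 8. By position the members fell into 24 runs when neighbouring starts were allowed to be 1 Mb apart. The large runs held 16 members on chromosome 4, 10 on chromosome 2, 10 on chromosome 17, 4 on chromosome 7 and 4 on chromosome 13.

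In WT mES cells, 3 members averaged above 100 CPM, 30 from 10 to 100, 24 from 1 to 10, and 9 at most 1 CPM. Per kb of exon, the highest level was that of *Zfp990* on chromosome 4, at 46.0 ± 3.28 CPM per kb (SD, n = 8). *Zfp978* followed at 34.0 ± 6.65, *Zfp985* at 30.9 ± 2.35, *Zfp979* at 30.5 ± 3.99 and *Zfp961*, on chromosome 8, at 28.4 ± 3.37 CPM per kb. These last 4 levels overlapped within 1 SD, and 4 of the 5 genes belong to the chromosome 4 cluster. That cluster supplied 47.3–56.7% of the members' CPM in every library of the series. The 4 tested members of the chromosome 2 cluster were low in WT mES cells, with means of 1.37 to 7.42 CPM.

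Summed over all members, WT mES cells had 1452 ± 116 CPM (SD, n = 8) and WT EpiLCs 1122 ± 63.7. LBRKO cells had 1385 ± 91.1 CPM in mES cells and 1126 ± 114 in EpiLCs (SD, n = 4 each). TKO mES cells had 1746 ± 57.5 CPM and TKO EpiLCs 1198 ± 89.7. QKO cells had the highest sums, 2014 ± 149 CPM in mES cells and 1774 ± 177 in EpiLCs. The QKO EpiLC libraries (1583–2012 CPM) lay above every WT EpiLC library (1016–1200.4 CPM), and the QKO mES libraries (1869–2209 CPM) above every WT mES library (1255–1589 CPM). These sums are dominated by a few abundant members, so the comparisons below were made gene by gene.

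**Figure D1:**
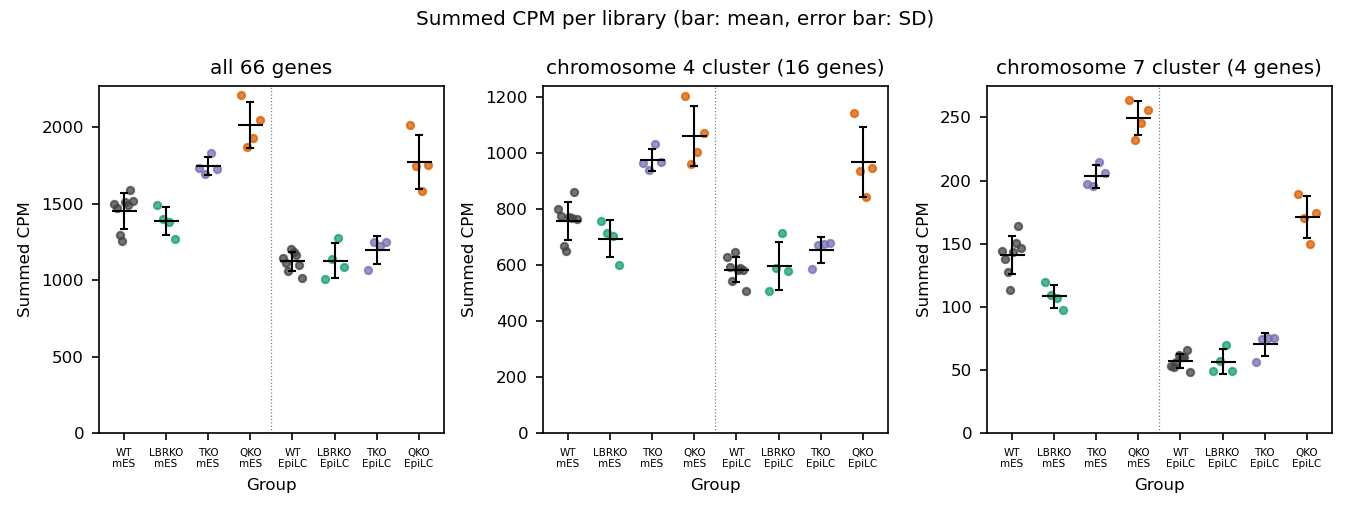
Summed CPM per library (points) for all members, the chromosome 4 cluster and the chromosome 7 cluster in the 8 groups, with bars at the group mean and error bars of 1 SD. QKO EpiLCs averaged 1774 CPM over all members against 1122 in WT EpiLCs, and 171 against 57.3 CPM in the chromosome 7 cluster.

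The first comparison asked how these genes changed as WT cells left the naive state. A gene is said to have risen or fallen, or is called, when its adjusted p was under 0.05 and its change over 2-fold in edgeR's quasi-likelihood test, with Benjamini-Hochberg adjustment over all 23399 genes tested. By this rule 1 member was higher and 7 were lower in WT EpiLCs than in WT mES cells, against 18.2% of all genes higher and 12.9% lower. Without the fold limit, 9 members were higher and 29 lower, against 35.8% and 28.6% of all genes. The median member changed by −0.28 on the log2 scale and the median gene by 0.07. In bulk RNA, fewer cells expressing a gene and less RNA per cell cannot be told apart, here and in the comparisons that follow.

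The chromosome 7 cluster (chr7:42229207-42841533, 4 members) fell as a whole in WT EpiLCs. Each of its 4 members was called lower, whereas 1 of 10 tested neighbours within the span was, with a median neighbour change of −0.17. The sequences upstream of these members are shown because they are near copies of each other although the genes changed unequally in QKO EpiLCs, as described below. Each holds the 200 bases before the annotated start of the canonical transcript, or before the most upstream start within 1000 bases of it (GRCm39, GENCODE M39, gene strand, 5′ to 3′), and capitals mark the CCAAT box, CCAAT or its reverse complement ATTGG.
*Zfp977* (chr7:42242010-42242209, minus strand): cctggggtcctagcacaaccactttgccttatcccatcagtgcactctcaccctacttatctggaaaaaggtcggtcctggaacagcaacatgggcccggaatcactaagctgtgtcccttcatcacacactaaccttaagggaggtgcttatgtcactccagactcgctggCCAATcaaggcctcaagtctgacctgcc
*Zfp936* (chr7:42826779-42826978, plus strand): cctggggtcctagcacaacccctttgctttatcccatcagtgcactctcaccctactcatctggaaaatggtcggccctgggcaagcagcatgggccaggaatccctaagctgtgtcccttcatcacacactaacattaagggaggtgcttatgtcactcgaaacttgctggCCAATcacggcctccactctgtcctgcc
*Zfp975* (chr7:42342227-42342426, minus strand): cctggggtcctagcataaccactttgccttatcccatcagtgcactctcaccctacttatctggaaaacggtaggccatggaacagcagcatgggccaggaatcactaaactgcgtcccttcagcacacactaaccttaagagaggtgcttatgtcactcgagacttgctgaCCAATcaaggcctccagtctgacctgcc
*Zfp976* (chr7:42292013-42292212, minus strand): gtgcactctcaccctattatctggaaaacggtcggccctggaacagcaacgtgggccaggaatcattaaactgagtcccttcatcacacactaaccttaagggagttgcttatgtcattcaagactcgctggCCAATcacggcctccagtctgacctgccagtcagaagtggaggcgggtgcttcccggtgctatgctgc
The windows of *Zfp977* and *Zfp936* were 90.5% identical over 200 aligned positions, those of *Zfp977* and *Zfp975* 92.5%, and those of *Zfp975* and *Zfp936* 89.5%. The *Zfp976* window aligned with the others over 161 positions at 87.6–91.9% identity. Each of the 4 windows held 1 CCAAT box and no TATA box. The windows of *Zfp977* and *Zfp975* also overlap an exon of an antisense non-coding RNA gene (*Gm73611* and *Gm38998*).

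*Zfp977* fell the most of the members between the stages. It ranged from 14.9 to 20.1 CPM (median 17.6) in the 8 WT mES libraries and from 3.46 to 5.79 CPM (median 4.18) in the 8 WT EpiLC libraries. The groups did not overlap, and the level was 4.02-fold lower in EpiLCs (log2 −2.01, SE 0.11, edgeR adjusted p = 4.51e-20). *Zfp975* went from 27.8–36.6 CPM (median 30.8) to 9.68–12.1 CPM (median 11.3), a 2.83-fold decrease (log2 −1.50, SE 0.06, adjusted p = 7.1e-24). *Zfp976* went from 26.3–36.2 CPM (median 32.7) to 11.1–16.9 CPM (median 13.9), 2.26-fold lower (log2 −1.17, SE 0.08, adjusted p = 1.91e-16). *Zfp936* spread widely in WT mES cells, from 44.7 to 80.5 CPM (median 61.4), with WT libraries 5 to 8 all above libraries 1 to 4. In WT EpiLCs it lay between 24.4 and 35.8 CPM (median 27.4), below every WT mES library and 2.17-fold lower (log2 −1.12, SE 0.10, adjusted p = 5.85e-13). With WT libraries 1 to 4 alone the change was −0.93 on the log2 scale and no longer over 2-fold.

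Outside chromosome 7, *Zfp997* on chromosome 13 fell 3.68-fold (log2 −1.88, SE 0.21, adjusted p = 1.46e-10), from 4.22–11.8 CPM (median 6.67) to 0.905–2.81 CPM (median 2.204). *Zfp947* on chromosome 17 (log2 −1.07, SE 0.12) and *Zfp988* on chromosome 4 (−1.03, SE 0.12) fell just over 2-fold, and neither passed the fold limit against WT libraries 1 to 4 alone (−0.72 and −0.89). *Zfp988* also lost the call without WT mES library 7 or WT EpiLC library 8 (−0.99 each). *Zfp946* on chromosome 17 was the 1 member that rose, from 4.198–7.28 CPM (median 4.97) to 9.06–12.4 CPM (median 10.4), with a log2 change of 1.01 (SE 0.10, adjusted p = 6.23e-12). That change lay at the threshold. It was 0.98 by DESeq2, 0.75 against WT libraries 5 to 8 alone, and 0.97 to 1.00, under the limit, when WT mES library 1, 2, 3, 4 or 6 or WT EpiLC library 2, 3 or 4 was left out. No other member of the chromosome 17 cluster was called higher, the nearest being *Zfp948* at 0.98 (SE 0.07).

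**Figure D2:**
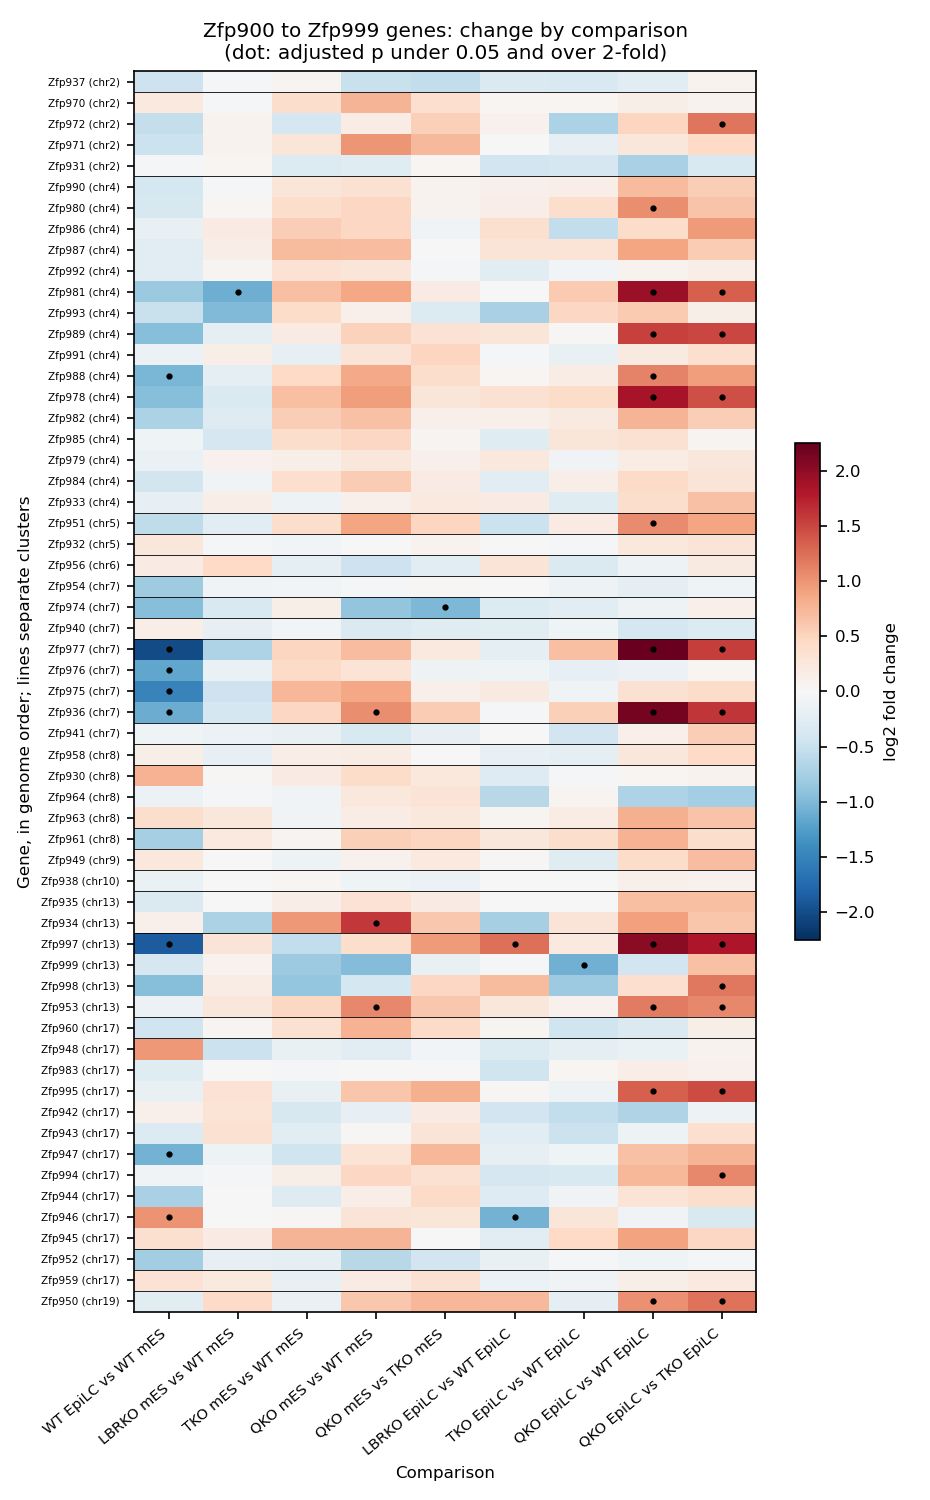
Log2 fold change of each of the 59 tested members (rows, in genomic order) in each comparison (columns), where a dot marks a member called at adjusted p under 0.05 and over 2-fold. The EpiLC columns of QKO against WT and QKO against TKO hold 12 dots each, all higher (20.3% of members, against 13% and 9.97% of all genes). The stage comparison of WT cells holds 8. There 1.69% of members were higher and 11.9% lower, below the 18.2% and 12.9% of all genes.

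The next comparisons set each mutant against WT in mES cells, where genotype cannot be told apart from line or clone. In LBRKO mES cells 0 members were called higher and 1 lower, against 3.06% and 3.25% of all genes, and the median member changed by −0.01. The member that fell was *Zfp981*, in the chromosome 4 cluster. It lay at 53.3–82.5 CPM (median 62.3) in the 8 WT mES libraries and at 27.0, 31.4, 31.8 and 31.8 CPM in the 4 LBRKO mES libraries. The groups did not overlap, and the level was 2.14-fold lower (log2 −1.10, SE 0.10, adjusted p = 2.04e-11). In counts that include reads mapping to several places the change was −0.79 and was not called. At any fold, 4 members were higher and 9 lower, against 12.7% and 11.2% of all genes. These counts depended on the WT set: 12 were higher and 12 lower against WT libraries 1 to 4 alone, with a median of 0.07, and 1 was higher and 9 lower against WT libraries 5 to 8 alone, with a median of −0.09.

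With the lamins alone missing, more members were above than below their WT level, by less than 2-fold. In TKO mES cells 0 members were called in either direction (2.68% of all genes higher and 3.77% lower), while at an adjusted p under 0.05 with no fold limit 20 members were higher and 4 lower (8.09% and 13.2% of all genes). The median member changed by 0.13 and the median gene by −0.01. Against WT libraries 5 to 8 alone the median member changed by 0.02, with 14 higher and 7 lower, and against WT libraries 1 to 4 alone by 0.15, with 22 higher and 1 lower. The largest increase was that of *Zfp934* on chromosome 13 (log2 0.98, SE 0.10, adjusted p = 6.94e-10). Its TKO libraries had 15.5, 17.2, 18.5 and 19.5 CPM, all above the WT range of 6.15–11.2 CPM. The 826 tested protein-coding genes on chromosome 8 that are not members had a median change of −0.05. In this comparison some WT cells were trisomic as well, and none of the members on that chromosome was called. Chromosome 6 holds the member *Zfp956*. Its 723 other tested protein-coding genes had median changes of 0.36 in LBRKO, −0.22 in TKO and −0.27 in QKO mES cells.

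In QKO mES cells 3 members were called higher and 0 lower, against 10.6% and 6.66% of all genes. With no fold limit 29 members were higher and 9 lower, against 21% and 23.5% of all genes, and the median member changed by 0.30 where the median gene changed by 0.01. *Zfp934* rose 3.01-fold (log2 1.59, SE 0.10, adjusted p = 1.03e-16), to 25.6, 27.1, 27.5 and 27.6 CPM. *Zfp953*, also on chromosome 13, rose 2.10-fold (log2 1.07, SE 0.13, adjusted p = 4.14e-09), from 10.01–17.6 CPM (median 14.4) in WT to 27.4, 27.7, 30.3 and 31.2 CPM. *Zfp936* on chromosome 7 rose 2.06-fold (log2 1.04, SE 0.12, adjusted p = 9.93e-10), to 114, 122, 129 and 136 CPM. All 3 genes had QKO libraries above every WT library. Against WT libraries 5 to 8 alone *Zfp953* and *Zfp936* changed by 0.87 and 0.81 and passed the fold limit no longer, so that 1 member was called higher and 1 lower (*Zfp999*), and against libraries 1 to 4 alone 5 were called higher and 1 lower (*Zfp974*). Without WT mES library 3 or 4 the change of *Zfp936* was 1.00 and 0.99, just under the limit. *Zfp971* on chromosome 2 lay just under the limit (log2 1.00, SE 0.10, adjusted p = 5.88e-11).

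QKO and TKO mES cells, which differ by the *Lbr* disruption and by the cloning step, differed at 0 members called higher and 1 lower (4.09% and 2.12% of all genes), and at 13 higher and 3 lower with no fold limit (9.16% and 11.3%). *Zfp974*, on chromosome 7 outside the cluster, had 6.25, 7.01, 7.43 and 8.72 CPM in TKO and 3.10, 3.47, 3.64 and 4.33 CPM in QKO mES cells, a 2.02-fold difference (log2 −1.02, SE 0.16, adjusted p = 8.19e-06). The WT mES libraries lay between 4.62 and 8.43 CPM. The call was lost without TKO mES library 3 (−0.93) or QKO mES library 3 (−0.95), and lay just under the limit without QKO mES library 4. Its exons overlap an antisense gene over 465 bases, and whether the counting used strand is not given, so reads from the antisense gene may be included.

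In EpiLCs the same genotypes were compared 48 h into the transition. LBRKO EpiLCs had 1 member higher and 1 lower (3.04% and 2.63% of all genes), with a median member change of −0.02. *Zfp997* was higher, at 4.34, 4.63, 4.70 and 5.60 CPM against 0.905–2.81 CPM in WT EpiLCs (log2 1.23, SE 0.24, adjusted p = 1.17e-04). *Zfp946* was lower, at 4.38, 4.72, 5.497 and 5.71 CPM against 9.06–12.4 CPM (log2 −1.07, SE 0.13, adjusted p = 9.14e-09). The 4 LBRKO EpiLC libraries lay within the WT mES range of 4.198–7.28 CPM. Against WT libraries 5 to 8 alone *Zfp946* was not called.

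TKO EpiLCs had 0 members higher and 1 lower, against 1.44% and 1.48% of all genes, and the median member changed by −0.06. The call was *Zfp999* (log2 −1.08, SE 0.34, adjusted p = 0.0218), a gene with means of 0.353 CPM in TKO and 0.735 CPM in WT EpiLCs whose libraries overlapped. It was lost without WT EpiLC library 1 or TKO EpiLC library 2 or 4 (−0.84 to −1.04). At any fold 8 members were higher and 9 lower (4.63% and 10% of all genes). *Zfp977* was among the 8, at 6.09, 6.11, 7.36 and 8.11 CPM against 3.46–5.79 CPM in WT, a log2 change of 0.67.

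QKO EpiLCs stood apart. Here 12 members were called higher and 0 lower, where 13% of all genes were higher and 8.16% lower. At any fold 32 of the 59 tested members were higher and 5 lower, against 24.3% and 30.5% of all genes. The median member changed by 0.34 and the median gene by −0.01. Among the zinc finger genes with a Zfp symbol outside this range, 17 were called higher and 7 lower (5.15% higher), with a median of 0.03. The QKO libraries lay above every WT EpiLC library for each of the 12 called members. The share of all called genes that separate in this way was not computed, here or in mES cells, so this adds little to the calls. They were *Zfp977*, *Zfp936*, *Zfp997*, *Zfp981*, *Zfp978*, *Zfp989*, *Zfp995*, *Zfp953*, *Zfp988*, *Zfp951*, *Zfp980* and *Zfp950*, in order of change, from 4.66-fold to 2.03-fold. Against TKO EpiLCs, which differ from QKO by the *Lbr* disruption and the cloning step, 12 members were higher and 0 lower (9.97% and 5.29% of all genes), and 35 were higher at any fold (18.9% of all genes). The comparison of WT EpiLCs with WT mES cells shares the WT EpiLC libraries with these mutant comparisons, so a fall in the first and a rise in the second are not independent.

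Within the chromosome 7 cluster the response was split. *Zfp977* had 18.6, 19.3, 21.2 and 22.03 CPM in the QKO EpiLC libraries against 3.46–5.79 CPM in WT EpiLCs, 4.66-fold higher (log2 2.22, SE 0.12, adjusted p = 1.19e-18). This is above or within the WT mES range of 14.9–20.1 CPM. *Zfp936* had 107, 126, 127 and 137 CPM against 24.4–35.8 CPM, 4.43-fold higher (log2 2.15, SE 0.12, adjusted p = 5.77e-19), and all 4 libraries exceeded the highest WT mES library. *Zfp976*, which lies between *Zfp977* and *Zfp975*, had 11.0, 11.4, 13.8 and 14.9 CPM, inside or just under the WT EpiLC range of 11.1–16.9 CPM (log2 −0.13). *Zfp975* had 12.8, 13.1, 13.6 and 16.1 CPM against 9.68–12.1 CPM, a log2 change of 0.34 that was significant but below 2-fold. In QKO mES cells, by contrast, *Zfp975* and *Zfp976* were both above their WT levels, by 0.86 and 0.30 on the log2 scale at adjusted p under 0.05.

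The share of the cluster's CPM that came from *Zfp977* and *Zfp936* together was 56.3% in WT EpiLCs (54.0–60.7%), 54.3% in LBRKO EpiLCs, 67.7% in TKO EpiLCs (66.7–69.0%) and 84.4% in QKO EpiLCs (83.6–85.6%). In mES cells it was 55.2% in WT (48.6–61.7%) and 61.6% in QKO (60.8–62.5%). This pair was chosen after its values were seen, and the shares are given without a test. In QKO EpiLCs 3 of the 10 tested neighbours in the span were called higher, none of them among the 3 coding neighbours. The counts of the 4 genes rested on reads with a single mapping position: when reads with several positions were counted as well, totals changed by a ratio of 1.00 to 1.05, and the changes of *Zfp977* and *Zfp936* in QKO EpiLCs were 2.24 and 2.17.

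**Figure D3:**
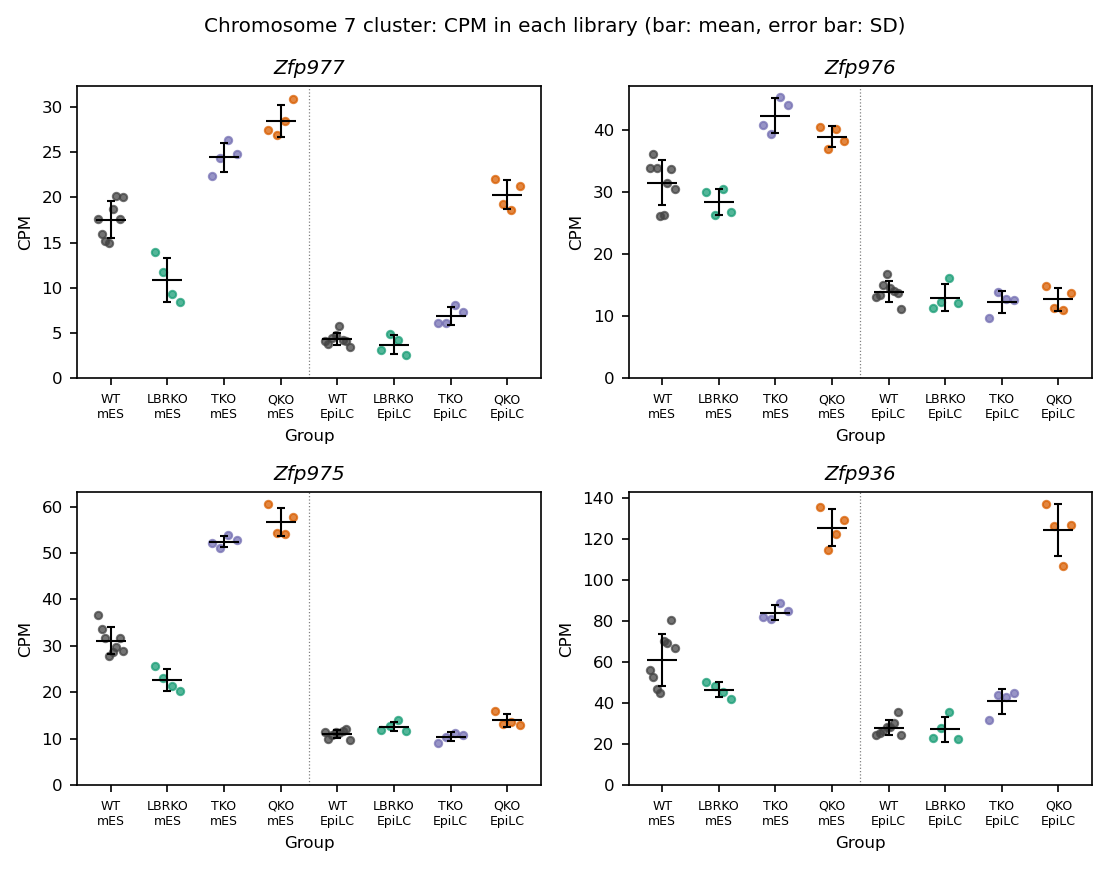
CPM in each library (points; bars at the group mean, error bars of 1 SD) for *Zfp977*, *Zfp976*, *Zfp975* and *Zfp936* across the 8 groups, mES cells left of the dotted line and EpiLCs right of it. All 4 genes are lower in WT EpiLCs than in WT mES cells, and in QKO EpiLCs *Zfp977* (18.6–22.03 CPM) and *Zfp936* (107–137 CPM) lie far above WT EpiLCs while *Zfp976* does not.

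The chromosome 4 cluster (16 members, all tested, over 2695 kb), the largest run, contained the most called members in QKO EpiLCs. As a share of the run this was not the highest, because 2 of 4 members were called higher in each of the chromosome 7 and 13 runs. The summed level of the chromosome 4 cluster was 583 ± 44.0 CPM in WT EpiLCs, 652 ± 45.7 in TKO EpiLCs and 967 ± 125 in QKO EpiLCs. In QKO EpiLCs all 16 members had a log2 change above 0 against WT, with a median of 0.66. Of these, 11 passed an adjusted p under 0.05 and 5 were called, where 24.3% and 13% of all genes were higher by the same rules. In mES cells 14 of the 16 were above 0 in TKO and 16 of 16 in QKO, and none was called at over 2-fold. At adjusted p under 0.05, 10 and 12 were higher, against 8.09% and 21% of all genes. The members' median changes were 0.39 in TKO and 0.47 in QKO mES cells. Of the 47 tested neighbours in the span, 4 were called higher in TKO and 12 in QKO mES cells, with medians of 0.33 and 0.78.

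Sequences upstream of 5 of these members are printed because 4 share a compound motif that is rare elsewhere, while *Zfp981*, which responded most, lacks it. Capitals mark the GC box next to a CCAAT box (CCGCCCAAT, here in the reverse complement ATTGGGCGG), or, in *Zfp981*, the CCAAT box alone in the same orientation. The windows are defined as for chromosome 7.
*Zfp989* (chr4:147056233-147056432, plus strand): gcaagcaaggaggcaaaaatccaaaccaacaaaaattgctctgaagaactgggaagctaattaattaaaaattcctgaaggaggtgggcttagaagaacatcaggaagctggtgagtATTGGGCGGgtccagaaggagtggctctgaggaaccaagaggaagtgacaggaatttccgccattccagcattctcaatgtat
*Zfp978* (chr4:147448842-147449041, plus strand): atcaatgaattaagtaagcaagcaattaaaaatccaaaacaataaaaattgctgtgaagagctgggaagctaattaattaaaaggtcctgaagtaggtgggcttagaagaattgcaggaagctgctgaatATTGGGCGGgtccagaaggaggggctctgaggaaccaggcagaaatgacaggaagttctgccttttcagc
*Zfp988* (chr4:147389931-147390130, plus strand): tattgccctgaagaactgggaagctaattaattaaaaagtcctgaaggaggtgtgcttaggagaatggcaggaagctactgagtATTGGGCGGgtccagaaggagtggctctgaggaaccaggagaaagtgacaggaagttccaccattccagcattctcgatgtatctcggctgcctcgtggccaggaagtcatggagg
*Zfp979* (chr4:147727023-147727222, minus strand): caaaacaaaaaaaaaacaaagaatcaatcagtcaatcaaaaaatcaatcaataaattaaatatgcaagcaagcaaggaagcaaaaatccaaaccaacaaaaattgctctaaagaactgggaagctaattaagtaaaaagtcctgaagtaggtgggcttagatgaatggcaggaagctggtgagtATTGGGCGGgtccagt
*Zfp981* (chr4:146612446-146612645, plus strand): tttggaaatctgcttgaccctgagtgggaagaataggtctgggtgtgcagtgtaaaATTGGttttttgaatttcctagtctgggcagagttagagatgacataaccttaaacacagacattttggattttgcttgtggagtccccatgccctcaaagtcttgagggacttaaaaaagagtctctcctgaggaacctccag
The *Zfp989* window aligned to that of *Zfp978* with 86.5% identity over 185 positions, to that of *Zfp988* with 91.6% over 166, and to that of *Zfp979* with 93.2% over 132. The compound motif was present in 5 of the 66 members (*Zfp989*, *Zfp988*, *Zfp978*, *Zfp985* and *Zfp979*, all on chromosome 4), or 7.58%, and in 48 of 21770 protein-coding promoters of the same length, or 0.220%. The windows of these 5 members are similar copies of each other, so the 5 matches are not independent and the shares are given without a test. The compound motif contains both a GC box and a CCAAT box, so these matches overlap the counts for those motifs. Of the 5 genes that hold it, *Zfp978*, *Zfp989* and *Zfp988* were called higher in QKO EpiLCs, and *Zfp985* (log2 0.34) and *Zfp979* (0.17) were not.

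Over all 66 members, the CCAAT box was found on either strand in 48 windows, or 72.7%, against 31.8% of all protein-coding promoters. The GC box GGGCGG was found in 9 (13.6% against 29.7%) and the TATA box TATAAA in 3 (4.55% against 10.1%). An ETS site CCGGAAG was present in 5 (7.58% against 5.27%), an E box CACGTG in 3 (4.55% against 5.11%), and the NRF1 site in 0 (against 2.91%). Members had a median of 3 CpG and 47.5% GC per window, against 5 and 52.5% over all promoters. Members of a cluster are copies of each other and not independent, and the RNA counts cover exons and do not show which start site was used.

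*Zfp981* rose from 28.4–43.1 CPM (median 37.1) in WT EpiLCs to 125, 138, 145 and 150.4 CPM in QKO EpiLCs. This 3.83-fold increase (log2 1.94, SE 0.09, adjusted p = 5.24e-21) also put all 4 QKO libraries above the WT mES range of 53.3–82.5 CPM. TKO EpiLCs lay between, at 49.7, 54.3, 56.7 and 59.5 CPM. *Zfp978* rose 3.64-fold (log2 1.86, SE 0.13, adjusted p = 5.08e-16), from 16.1–28.3 CPM (median 24.0) to 72.0, 81.1, 85.4 and 91.3 CPM. *Zfp989* rose 2.89-fold (log2 1.53, SE 0.16, adjusted p = 4.7e-11), from 3.57–7.85 CPM (median 5.82) to 14.8, 15.0, 17.4 and 20.6 CPM. Its TKO EpiLC libraries, at 3.97, 5.04, 7.36 and 7.53 CPM, stayed within the WT range. *Zfp988* and *Zfp980* rose just over 2-fold (log2 1.12, SE 0.14, and 1.04, SE 0.11). Without QKO EpiLC library 1, which had 31.7 CPM of *Zfp988* where the other 3 had 17.7 to 19.2, neither gene kept a 2-fold change (0.89 and 0.95). *Zfp980* also fell to 0.99 without WT EpiLC library 8 and to 0.88 against WT libraries 1 to 4 alone.

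Of the cluster's 4 members with the highest level per kb in WT mES cells, *Zfp978* was called, whereas *Zfp990* changed by 0.71 on the log2 scale, *Zfp985* by 0.34, and *Zfp979* by 0.17, the last not significant. *Zfp987*, *Zfp982*, *Zfp984* and *Zfp933* changed by 0.89, 0.76, 0.44 and 0.40 at adjusted p under 0.05. *Zfp993* (0.60), *Zfp986* (0.41), *Zfp991* (0.20) and *Zfp992* (0.09) did not pass the test. The called genes lie among these along the chromosome, and the last 5 genes of the cluster, from *Zfp982* to *Zfp933*, include none. *Zfp981*, *Zfp978* and *Zfp989*, chosen after their values were seen, together made up 11.1% of the cluster's CPM in WT EpiLCs (9.50–12.0%) and 24.8% in QKO EpiLCs (23.0–25.7%). The span also holds 47 tested genes that are not members, and 22 of them were called higher in QKO EpiLCs, with a median change of 0.95. Among the 5 coding neighbours, 4 were called higher. *Zfp986* and *Zfp993* gave 3.13 and 1.68 times as many reads when reads with several mapping positions were counted, and *Zfp981* 1.23 times, so single-position counts cover these genes incompletely. With those reads included *Zfp981* changed by 1.81.

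**Figure D4:**
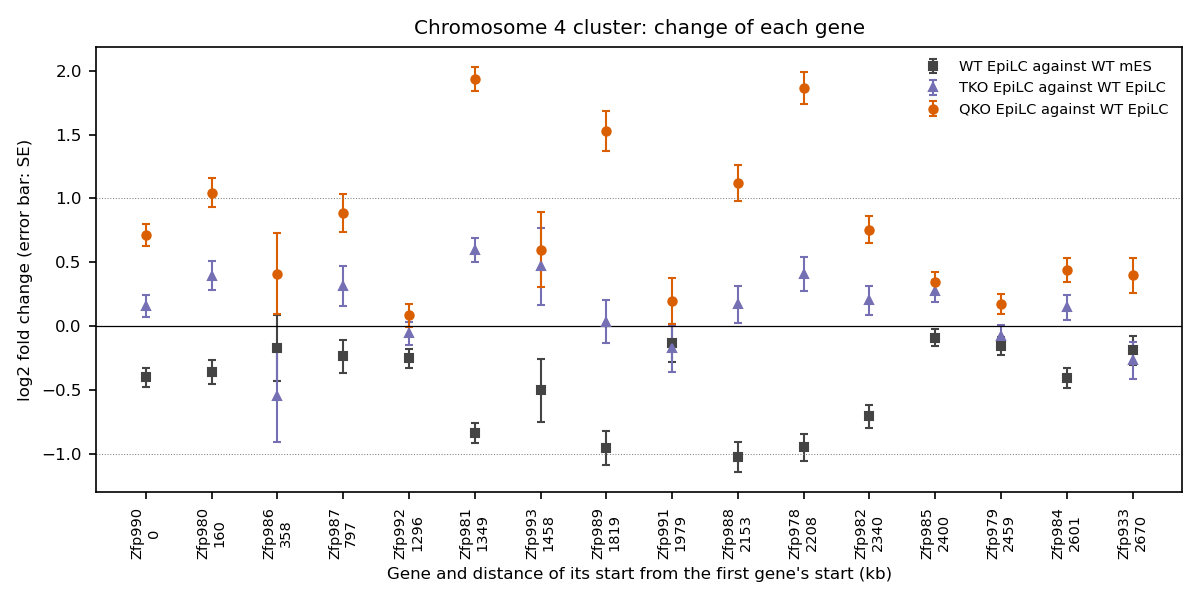
Log2 fold change (vertical axis, error bars of 1 SE) of the 16 chromosome 4 members, ordered by the distance of their start from that of the first gene in kb, for WT EpiLCs against WT mES cells, TKO against WT EpiLCs and QKO against WT EpiLCs, with dotted lines at 2-fold. In QKO EpiLCs every member lies above 0, from 0.09 (*Zfp992*) to 1.94 (*Zfp981*), and the 5 called genes are not all neighbours.

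**Figure D5:**
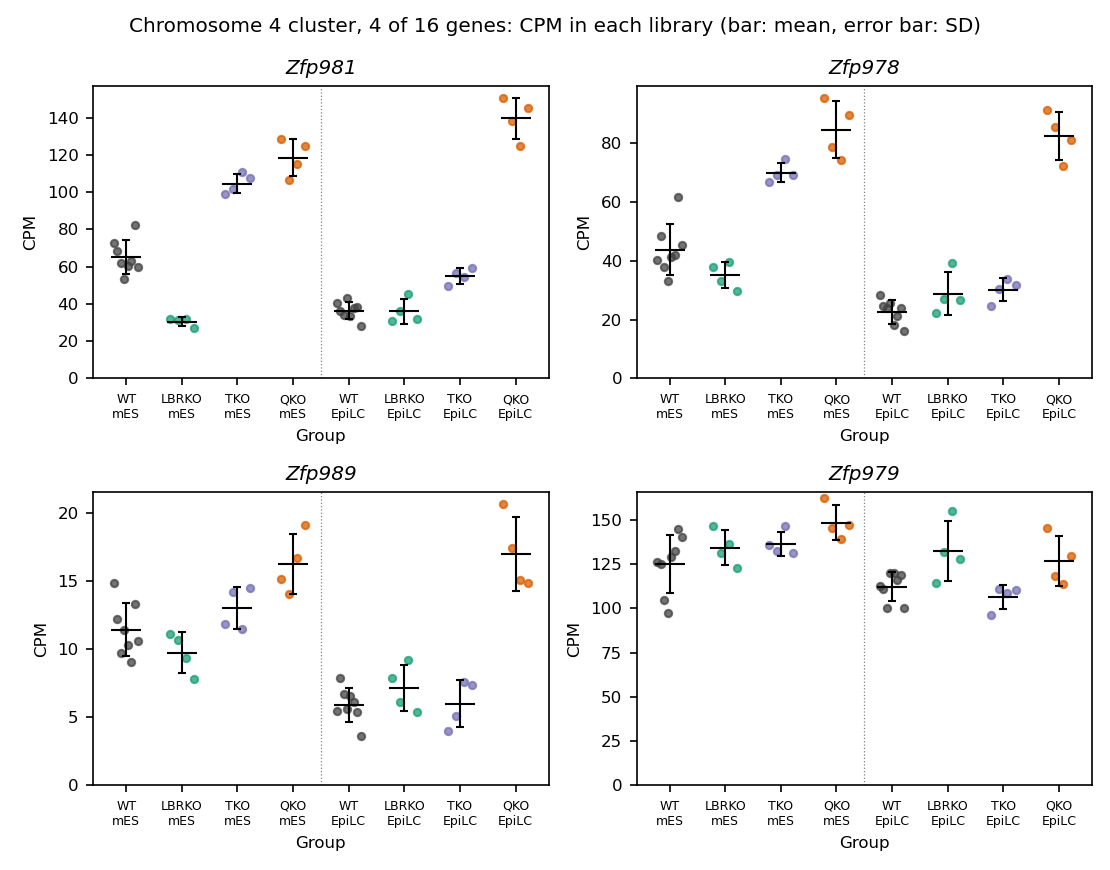
CPM in each library (points; bars at the group mean, error bars of 1 SD) for *Zfp981*, *Zfp978*, *Zfp989* and *Zfp979* of the chromosome 4 cluster across the 8 groups. *Zfp981* lies at 27.0–31.8 CPM in LBRKO mES cells, below all WT mES libraries, and at 125–150.4 CPM in QKO EpiLCs, above all WT libraries of either stage.

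On chromosome 13 the run of 4 members (*Zfp997*, *Zfp999*, *Zfp998* and *Zfp953*) had 3 members higher in QKO than in TKO EpiLCs, where 9.97% of all genes were higher. Of the 43 tested neighbours in the span, 13 were called higher in the same comparison, with a median change of 0.70. Among the 13 coding neighbours 2 were, with a median change of 0.12. Against WT EpiLCs 2 members and 17 of the 43 neighbours were called higher. *Zfp997* was at 5.34, 7.56, 7.93 and 12.9 CPM in QKO and at 2.09, 2.38, 2.41 and 2.66 CPM in TKO EpiLCs (log2 1.82, SE 0.30, adjusted p = 3.29e-06), and it was 4.10-fold higher than in WT EpiLCs (log2 2.04, SE 0.24, adjusted p = 1.68e-09). Counting reads with several positions gave a log2 change of 1.64 against WT. *Zfp998* showed a different order of groups. It had 22.8–34.2 CPM (median 27.8) in WT EpiLCs, 42.6, 43.0, 43.8 and 49.5 CPM in LBRKO EpiLCs, 14.6, 15.3, 15.8 and 16.7 CPM in TKO EpiLCs, and 30.5, 33.5, 37.5 and 41.0 CPM in QKO EpiLCs. The TKO libraries were all below WT (log2 −0.81), the LBRKO libraries all above (0.71), and the QKO libraries partly overlapped WT (0.38), with each change at adjusted p under 0.05. QKO was 2.28-fold higher than TKO (log2 1.19, SE 0.12, adjusted p = 3.71e-11). *Zfp953* was higher in QKO than in WT at both stages, with 25.2, 28.6, 29.5 and 30.2 CPM in QKO EpiLCs against 8.94–15.0 CPM in WT EpiLCs (log2 1.17, SE 0.13, adjusted p = 3.12e-10). *Zfp999* was below 1 CPM in most libraries and was called in neither QKO comparison in EpiLCs.

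Among the remaining members, *Zfp995* on chromosome 17 went from 4.41–6.04 CPM (median 5.47) in WT EpiLCs to 11.4, 13.4, 14.0 and 15.6 CPM in QKO EpiLCs (log2 1.34, SE 0.14, adjusted p = 3.53e-11). No other of the 10 chromosome 17 members was called against WT, and *Zfp994* was called against TKO only (log2 1.09, SE 0.17, adjusted p = 1.93e-06, and 1.00 without TKO EpiLC library 3). *Zfp951* on chromosome 5 had little spread in QKO EpiLCs, at 45.4, 45.7, 45.9 and 46.9 CPM against 18.98–27.0 CPM in WT (log2 1.07, SE 0.07, adjusted p = 2.41e-16). *Zfp950* on chromosome 19 had 8.28, 8.91, 9.46 and 10.4 CPM against 3.32–5.30 CPM (log2 1.02, SE 0.14, adjusted p = 3.54e-08). Against WT libraries 5 to 8 alone *Zfp951* and *Zfp950* changed by 0.93 and 0.94, and *Zfp950* by 0.96 to 0.98 without QKO EpiLC library 1 or WT EpiLC library 1 or 5. *Zfp972* on chromosome 2 was called against TKO EpiLCs (log2 1.20, SE 0.32, adjusted p = 0.00216), at levels of 1.06–1.47 CPM in QKO and 0.497–0.666 CPM in TKO.

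Whether a mutant's effect differed between the stages was tested as an interaction. For QKO, 5 members changed more upward in EpiLCs than in mES cells and 1 more downward, against 6.94% and 5.69% of all genes. These were *Zfp997* (difference of log2 changes 1.64, SE 0.34, adjusted p = 2.09e-04), *Zfp977* (1.52, SE 0.18, adjusted p = 5.25e-09), *Zfp936* (1.10, SE 0.17, adjusted p = 2e-06), *Zfp981* (1.07, SE 0.13, adjusted p = 2.34e-08) and *Zfp989* (1.02, SE 0.23, adjusted p = 4.38e-04). With WT libraries 1 to 4 alone the differences of *Zfp936*, *Zfp981* and *Zfp989* were 0.91, 0.97 and 0.97, and with reads of several mapping positions counted those of *Zfp981* and *Zfp989* were 0.90 and 0.62. *Zfp989* lost the call (0.91 to 0.99) without WT mES library 1 or 7, WT EpiLC library 1 or 8, QKO mES library 1 or 2, or QKO EpiLC library 1. *Zfp960* on chromosome 17 went the other way. It had 32.3, 35.0, 36.2 and 36.6 CPM in QKO mES cells against 18.3–23.6 CPM in WT, but 11.3, 11.3, 12.1 and 13.1 CPM in QKO EpiLCs against 11.5–19.2 CPM in WT (difference −1.10, SE 0.13, adjusted p = 9.81e-09, and −0.93 with WT libraries 1 to 4 alone). For LBRKO, 1 member was called in each direction (3.12% and 2.88% of all genes), and 4 and 5 passed without the fold limit (6.91% and 8.57%). *Zfp981* was lower in LBRKO mES cells but in LBRKO EpiLCs lay at 30.8, 31.9, 36.2 and 45.3 CPM against 28.4–43.1 CPM in WT (difference 1.08, SE 0.14, adjusted p = 8.68e-08). It was 0.79 with reads of several mapping positions counted and 0.97 without LBRKO EpiLC library 3 or with WT libraries 1 to 4 alone. *Zfp946* was lower in LBRKO EpiLCs only, with LBRKO mES libraries at 4.73–6.24 CPM against 4.198–7.28 CPM in WT (difference −1.06, SE 0.17, adjusted p = 1.12e-05), and its difference was −0.95 without LBRKO mES library 1, −0.98 without LBRKO EpiLC library 1 and −0.80 with WT libraries 5 to 8 alone. For TKO no member was called in either direction by edgeR (1.88% and 1.15% of all genes), and 1 and 5 passed an adjusted p under 0.05 with no fold limit (4.45% and 3.98%).

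Over all comparisons and interactions, 23 of the 59 tested members were called at least once and 36 never. *Zfp936* and *Zfp953* were called higher in QKO at both stages, and 22 members were higher in QKO at both stages at an adjusted p under 0.05. Of all genes, 21% were higher in QKO mES cells and 24.3% in QKO EpiLCs at that adjusted p. The shares of all genes called at least once, or higher at both stages, were not computed. These counts are therefore not read as particular to the members.

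The partners through which KRAB zinc finger proteins act were measured in the same libraries. Of 16 genes for the KRAB corepressor complex, none was called between WT stages, where 18.2% of all genes were higher and 12.9% lower. None was called in any mES comparison. *Trim28*, which encodes the corepressor itself, was abundant in every group, with means of 1824 CPM in WT mES cells, 2133 in QKO mES cells, 1620.0 in WT EpiLCs and 1869 in QKO EpiLCs. *Chd3*, a remodelling subunit of the NuRD complex that TRIM28 binds, was the 1 gene of the list called in QKO EpiLCs, at 8.43 CPM against 25.0 in WT (log2 −1.56, SE 0.11, adjusted p = 5e-16). Of all genes, 8.16% were lower in that comparison. *Setdb1*, the methyltransferase gene, averaged 265 CPM in QKO against 160 in WT mES cells and 157 in QKO against 197 in WT EpiLCs, and the difference of the QKO effect between the stages was called (−1.05, SE 0.08, adjusted p = 8.04e-14). In that test 2 of the 16 genes were called lower, against 5.69% of all genes. Of 19 further genes for H3K9me3 and linked silencing, 6 rose from WT mES cells to WT EpiLCs and none fell, against 18.2% and 12.9% of all genes. They were the de novo DNA methyltransferase genes *Dnmt3a* (log2 4.04) and *Dnmt3b* (4.32), their cofactor *Dnmt3l* (2.65), *Suv39h1* (1.38), *Tasor2* (1.87) and *Pphln1* (2.01). *Dnmt3a* and *Dnmt3b* are also on the list of primed markers. *Dnmt3l* was the 1 gene of the silencing list called in mutants against WT: it was higher in LBRKO (2.88), TKO (1.32) and QKO mES cells (2.28), and in LBRKO (2.12) and QKO EpiLCs (2.07).

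Of 12 tested KRAB zinc finger genes outside the numbered range, 4 fell from WT mES cells to WT EpiLCs and none rose, against 12.9% and 18.2% of all genes. *Zfp57*, which maintains methylation at imprinted loci, changed by −1.62, *Zfp819* by −1.50, *Zfp600* by −1.37 and *Zfp30* by −1.08. In QKO EpiLCs 3 were called higher, *Zfp429* (2.45), *Zfp600* (2.07) and *Zfp738* (1.48), and none lower, against 13% and 8.16% of all genes. *Zfp429* was also higher in TKO mES cells (3.11), QKO mES cells (2.95) and TKO EpiLCs (1.95), whereas no numbered member was called higher in TKO cells at either stage.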

How the data were processed

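Per the labels and methods, the authors sequenced total RNA. Trimming used cutadapt 2.5, alignment to GRCm39 used STAR 2.7.10a, and gene counting used featureCounts 1.6.4. The deposited values used here are raw gene counts of reads with a single mapping position. A second deposited table of counts includes reads with several positions and was used as an alternative. The strand setting of the counting is not given in the sources used here. Tables of transposable element copies were not used here.

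Members were matched by symbol in GENCODE M39, which named 56017 of 56748 gene identifiers. Genes were filtered with filterByExpr, scaled by TMM, and fitted over all 40 libraries in edgeR 4.0.16 (R 4.3.3) with 1 coefficient per group, with quasi-likelihood tests and Benjamini-Hochberg adjustment. A gene was called at adjusted p under 0.05 and over 2-fold. CPM uses TMM-scaled library sizes. A fit of QKO against WT EpiLCs alone was tested on simulated data, with changes well over the fold limit. That simulation does not cover the other comparisons, the interactions or changes near the limit. Named genes were the 5 highest members per kb, called members whose libraries do not overlap, tested members of clusters with at least 3 calls in 1 direction, called interactions, and called genes of the partner lists with *Trim28* and *Setdb1*. *Zfp999* in TKO EpiLCs, members just under the fold limit and cluster shares were named after their values were seen. The members and the lists were chosen with earlier results of these data known. Alternatives were DESeq2 1.42.0, other scalings and filters, the second table, subsets of WT libraries, a replicate block, and leaving out each library. Depth of 22594640 to 48863506 counts per library limits precision for members below 1 CPM.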

Additional observations from a re-analysis of the deposited data

Results flagged for a closer look

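In 136 groups of values checked, 5 held a library that stood apart from the others of its group, where chance alone marks about 1 in 20. TKO EpiLC library 1 accounted for 4 of them. Its summed level over all members was 1064 CPM where the other 3 libraries had 1226–1252, its chromosome 4 sum was 584 CPM (others 670–680.0), its chromosome 7 sum was 56.3 CPM (others 74.2–75.6), and *Zfp936* was at 31.5 CPM (others 42.7–44.8). LBRKO mES library 4 had 27.0 CPM of *Zfp981*, where the others had 31.4–31.8.

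The other values noted here are changes that differed between mES cells and EpiLCs in edgeR's interaction test, given as EpiLC minus mES log2 change. In QKO they were *Zfp997* (1.64), *Zfp977* (1.52), *Zfp936* (1.10), *Zfp981* (1.07), *Zfp989* (1.02) and *Zfp960* (−1.10). In LBRKO they were *Zfp981* (1.08) and *Zfp946* (−1.06).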

How the results depend on the processing

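No member called in the main fit changed direction in that comparison under the alternatives run. Members not called were left out of this check, and the counts in TKO mES cells given below went up or down with the WT set. Median changes near 0 did: that of LBRKO mES cells went from −0.01 to 0.07 with WT libraries 1 to 4 and −0.09 with WT 5 to 8. The number of members higher in QKO EpiLCs stayed at 11–15 of the main 12 under other tools, scalings, filters, read tables and WT subsets, and at 9–12 when 1 library was left out; against TKO EpiLCs it was 12–14 in both cases. Small counts moved more, and the cause was not tested. Members higher in WT EpiLCs fell to 0 with DESeq2, RLE scaling (DESeq2's size factors), only the groups compared, or the chromosome median subtracted, and members lower rose to 11 with no filter or only the groups compared. Members lower in LBRKO mES cells were 2 with DESeq2, the replicate block, WT libraries 1 to 4 or only the groups compared, and 0 with multimapped reads (reads with several mapping positions counted). TKO mES cells had 1 higher with a filter of 1 CPM in 4 libraries, the block or WT 1 to 4, and 2 lower with WT 5 to 8. QKO mES cells had 1 higher with no filter or WT 5 to 8 and 5 with multimapped reads or WT 1 to 4, and 1 lower with no filter, the block, either WT subset or the chromosome median. *Zfp974* was lost (0 lower in QKO against TKO mES cells) with multimapped reads. Members lower in LBRKO EpiLCs were 2 with WT 1 to 4 and 0 with WT 5 to 8, and in TKO EpiLCs 0 with no filter, multimapped reads, the block or WT 5 to 8. Stage differences in LBRKO were 0 higher with multimapped reads or WT 1 to 4, 2 higher and 0 lower with WT 5 to 8. In QKO they were 3 higher with multimapped reads and 2 with WT 1 to 4, and 0 lower with no filter or WT 1 to 4. Leaving out 1 library gave ranges of 0–1 higher and 6–8 lower between WT stages, 1–2 lower in LBRKO mES, 0–1 higher in TKO mES, 2–5 higher and 0–1 lower in QKO mES, 0–1 in each direction for QKO against TKO mES, 1–2 lower in LBRKO EpiLC, 0–1 lower in TKO EpiLC, and 0–2 higher and 0–1 lower for LBRKO stage differences. Samples were treated as unpaired, and a pairing by replicate number was not excluded. Same-number correlations of deviations between WT mES cells and WT EpiLCs ran from 0.01 to 0.45, with 4 of 8 above 0.1. Between LBRKO mES cells and LBRKO EpiLCs they ran from −0.16 to 0.36, with 3 above 0.1. No pair of groups had all above 0.1. The replicate block moved the counts given and members higher in QKO mES cells, to 4, and no other count. A maximum gap of 500000 bases gave 27 runs in place of 24. Depth limits members below 1 CPM, and reads shared between copies limit *Zfp986*, *Zfp935* and *Zfp993*.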
